A study of Mus musculus with 18 samples.

Results

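Tubulins and the proteins that fold them were followed in RNA of the retinal pigment epithelium (RPE) from mice labelled as *rd1*. Members were the protein-coding genes whose symbols mark them as an alpha, beta, gamma, delta or epsilon tubulin, a subunit of the chaperonin CCT (*Tcp1* and the Cct genes), a subunit of prefoldin (the Pfdn genes and *Vbp1*) or 1 of the tubulin cofactors A to E (*Tbca* to *Tbce*). Of the 47729 genes in the table, 40 were members: 19 tubulins and 21 folding factors. The set was chosen by the fold changes between treated and control eyes, in which groups of tubulin-folding genes had been seen to rise, so the changes between eyes given here for the members are a description. The mice were 40 days old and all were labelled as *rd1*, a line (FVB/N in the study's methods) that has no working *Pde6b* and loses its rods and later its cones. The methods also describe pairs of this age from CD1 mice, a strain that keeps its rods, and the *rd1* and CD1 pairs together make up as many as are labelled *rd1* here, so some of the mice may be CD1 in spite of their labels. One eye of each mouse was injected under the retina with AAV8-Best1-Nrf2, which carries the human *NFE2L2* cDNA behind the RPE-specific Best1 promoter, mixed with AAV-Best1-GFP of a different capsid. The fellow eye was given AAV-Best1-GFP alone, so that both groups carried the GFP vector. They are called Best1-Nrf2 (or treated) and control, and each held 9 eyes of the same 9 mice, the number in the labels being taken as the mouse. RNA was drawn from the eyecup after the retina had been taken off, and cells of the choroid, of remaining retina and of the immune system can contribute to it.

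Microtubules are polymers of alpha and beta tubulin dimers, and mammals make several isotypes of each, many of which differ most at the acidic C-terminal tail. Neither tubulin can fold alone. Prefoldin takes the new chain from the ribosome to CCT, a double ring of 8 different subunits, and cofactors A to E then join an alpha to a beta chain. Gamma tubulin starts microtubules at the centrosome, and delta and epsilon tubulin belong to centrioles. The RPE is an epithelium whose microtubules carry pigment granules and swallowed outer segments between its apical and basal sides. In many cells, free tubulin dimers speed the decay of tubulin mRNA, so that these mRNAs respond to the state of the polymer.

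Library totals ran from 18956748 to 49598700 counts. Levels are given as CPM, a gene's count relative to the scaled total of its library, and changes as log2 fold changes of Best1-Nrf2 over control from the quasi-likelihood test of edgeR with mouse as a block, with Benjamini-Hochberg adjusted p values over all 18958 genes tested and a threshold of 0.05. *Nfe2l2*, the mouse counterpart of the gene in the vector, was at 89.7 ± 17.8 CPM in control eyes, rose to 453 ± 147 CPM in treated eyes (SD; 9 eyes each; log2 fold change, 2.29; adjusted p = 6.2e-05, edgeR), and was higher in the treated eye of 9 of 9 mice. How much of this count came from the human cDNA of the vector was not tested. All 18 RPE markers examined passed the filter on low counts, and 5 of them (*Rpe65*, *Lrat*, *Rgr*, *Rlbp1* and *Rdh5*) were lower in Best1-Nrf2 eyes by the test. Libraries also differed in ways that the groups do not explain. In 5 libraries (control replicates 3 and 5, and Best1-Nrf2 replicates 3, 6 and 8) the median deviation of genes under 1 kb from that of genes over 5 kb was between 0.78 and 1.32 on the log2 scale, and it was at most 0.26 in the other 13. In 4 libraries (control 7 and 9, Best1-Nrf2 2 and 6) the mean log2 CPM of inner retina neuron markers was between 3.96 and 6.49, against at most 3.45 in the others. Fits without the mice of the short-gene libraries (3, 5, 6 and 8) and without those of the inner retina libraries (2, 6, 7 and 9) keep 5 mice each.

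Of 16 tubulin mRNAs tested, 8 were higher in Best1-Nrf2 eyes, and no folding factor passed the test. The fold change was positive for 12 of the 16, and 0 were called lower. The called genes were *Tuba1a*, *Tuba1b*, *Tuba1c*, *Tuba4a*, *Tubb2a*, *Tubb4a*, *Tubb4b* and *Tubb5*. The fit with a photoreceptor covariate, described with the markers of other cells, called 0 of them. Without mice 3, 5, 6 and 8 the calls of *Tuba1a*, *Tuba1b*, *Tubb2a* and *Tubb5* were lost, and without mice 2, 6, 7 and 9 all were lost but those of *Tubb4a* and *Tuba1c*. The log2 fold changes of the 8 were 0.61 or more in both of these fits. Among all genes, 3.12% were called higher, 1.13% lower and 4.25% in either direction. Of 20 folding factors tested, 0 were called in either direction by edgeR, and 1 of them (*Cct2*) had an unadjusted p under 0.05. The median log2 fold change was 0.68 over the tubulins and 0.05 over the folding factors, beside -0.03 over all genes. These medians without mice 3, 5, 6 and 8 were 0.32 and -0.09, without mice 2, 6, 7 and 9 they were 0.81 and 0.26, and voom gave 0.41 for the tubulins. With the photoreceptor covariate they were 0.99 and 0.60. Each of the 8 called tubulins was higher in the treated eye of 9 of 9 mice, as were 3.12% of all genes. No member was lower in 9 of 9 mice (1.22% of all genes) or had every treated eye below every control eye (0.116%). In bulk RNA, more cells that make a transcript cannot be told apart from more of that transcript per cell.

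**Figure D1:**
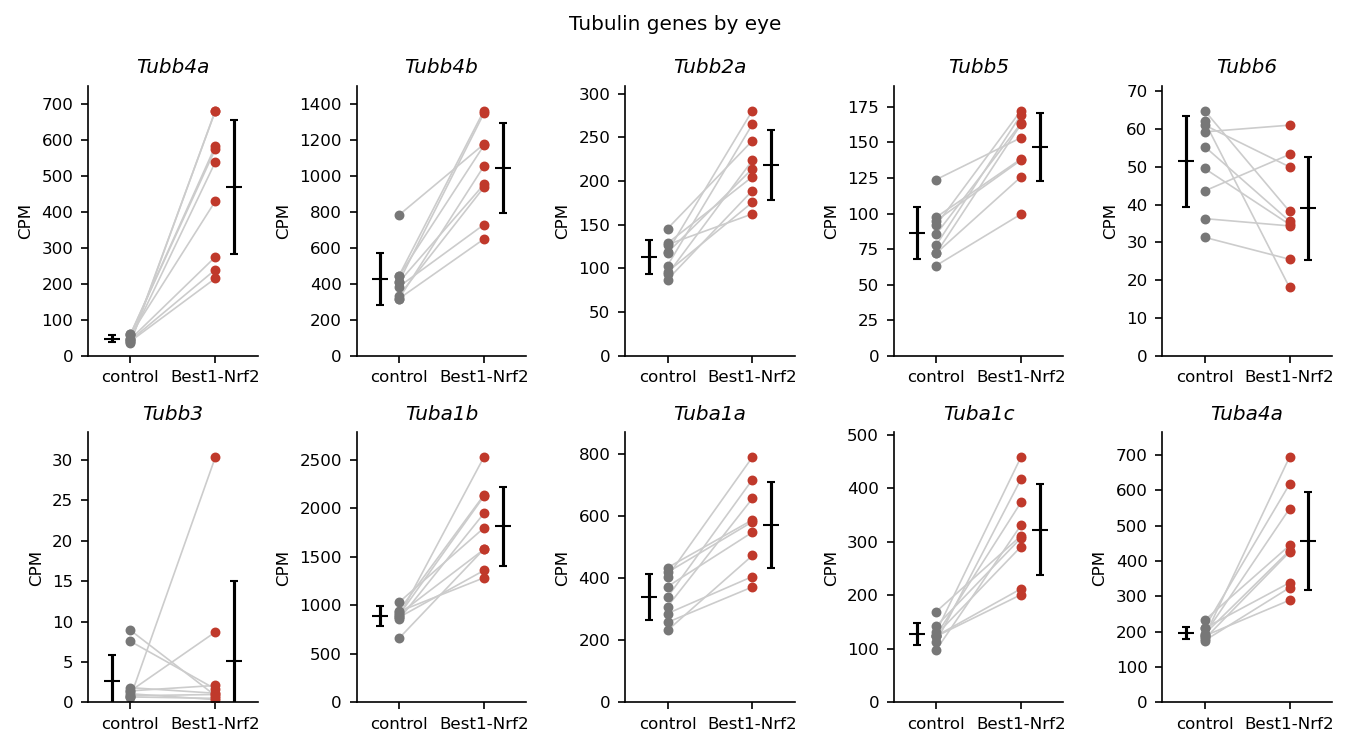
Level in CPM (linear axis from 0) of 10 tubulin genes in the control (grey) and Best1-Nrf2 (red) eyes, with a grey line joining the 2 eyes of a mouse and black bars for the mean and SD (n = 9 each; the lower SD bars of Tubb3 run below 0 and are clipped). Tubb4a lies between 34.8 and 60.1 CPM in control eyes and between 216 and 682 CPM in Best1-Nrf2 eyes.

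Among the beta tubulins, *Tubb4a* moved furthest. It encodes an isotype known mainly from the nervous system, where it is made by neurons and by myelinating oligodendrocytes. Its level was 34.8 CPM in the lowest control eye, 46.5 in the median one and 60.1 in the highest, and 216, 539 and 682 CPM in the lowest, median and highest Best1-Nrf2 eye. The groups did not overlap, and the lowest treated eye was well above the highest control eye. The log2 fold change was 3.20 (SE, 0.25; adjusted p = 1.6e-05, edgeR), a 9.21-fold rise, and it held rank 99 among the 18958 log2 fold changes, from the highest down. Within mice the log2 difference between eyes ran from 2.41 to 4.29. The 3 Best1-Nrf2 libraries with high levels of short genes were the 3 lowest of their group for *Tubb4a*, at 216, 240 and 275 CPM, and the other 6 stood at 430 or more. Without mice 3, 5, 6 and 8 the log2 fold change was 3.58 (adjusted p = 0.0015, edgeR), and without mice 2, 6, 7 and 9 it was 3.14 (adjusted p = 0.0034, edgeR).

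*Tubb4b* encodes a broadly expressed beta isotype, used in cilia and in the cytoplasm alike, and was the most abundant beta tubulin in both groups. The lowest, median and highest control eyes were at 318, 410 and 782 CPM, and the Best1-Nrf2 eyes at 649, 1053 and 1362 CPM. The groups overlapped through control replicate 8 alone, whose 782 CPM was above 2 of the treated eyes, and the next control eye was at a log2 CPM of 8.80 against its 9.61. That library also had the smallest total (18956748 counts) and the lowest mean log2 CPM of RPE markers (7.79, against 9.01 or more in other control eyes). The log2 fold change was 1.30 (SE, 0.17; adjusted p = 9.0e-04, edgeR). It was 1.35 without mice 3, 5, 6 and 8 (adjusted p = 0.014, edgeR) and 1.39 without mice 2, 6, 7 and 9 (adjusted p = 0.0725, edgeR).

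*Tubb2a*, an isotype of neurons and many other cells, and *Tubb5*, which is found in nearly all tissues, rose by less. *Tubb2a* went from a range of 87.2 to 146 CPM (median, 118) to a range of 162 to 281 CPM (median, 214), without overlap (log2 fold change, 0.94; SE, 0.15; adjusted p = 0.0025, edgeR). *Tubb5* ranged from 63.4 to 124 CPM (median, 85.4) in control eyes, and from 99.6 to 172 CPM (median, 153) in Best1-Nrf2 eyes, and these ranges overlapped (log2 fold change, 0.77; SE, 0.14; adjusted p = 0.0064, edgeR). The adjusted p without mice 3, 5, 6 and 8 was 0.0993 for *Tubb2a* (log2 fold change, 0.80) and 0.0822 for *Tubb5* (0.69), and without mice 2, 6, 7 and 9 it was 0.0868 (1.05) and 0.146 (0.84), by edgeR. The beta tubulins that passed the test thus included both neuronal and general isotypes.

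Among the alpha tubulins, 4 of the 5 tested were called. *Tuba1b* encodes the main alpha isotype of dividing and epithelial cells, and it had the highest level of all members. Its control eyes were at 660 (lowest), 899 (median) and 1032 CPM (highest), and its Best1-Nrf2 eyes at 1285, 1799 and 2529 CPM. The groups did not overlap and the log2 fold change was 1.01 (SE, 0.18; adjusted p = 0.0053, edgeR), a 2.01-fold rise. The log2 fold change was 0.96 without mice 3, 5, 6 and 8 (adjusted p = 0.115, edgeR) and 1.18 without mice 2, 6, 7 and 9 (adjusted p = 0.144, edgeR).

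*Tuba1c*, a close relative of *Tuba1b*, rose from a range of 97.6 to 169 CPM (median, 125) to 201 to 459 CPM (median, 311), with no overlap. Its log2 fold change was 1.30 (SE, 0.18; adjusted p = 9.8e-04, edgeR). *Tuba4a* encodes an alpha isotype whose chain ends without the C-terminal tyrosine that most others have. It was at 175, 192 and 232 CPM in the lowest, median and highest control eyes and at 289, 429 and 694 CPM in Best1-Nrf2 eyes, again with no overlap (log2 fold change, 1.16; SE, 0.17; adjusted p = 0.0018, edgeR). The adjusted p without mice 3, 5, 6 and 8 was 0.0269 for *Tuba1c* (log2 fold change, 1.29) and 0.0458 for *Tuba4a* (1.25), and without mice 2, 6, 7 and 9 it was 0.0434 (1.47) and 0.0909 (1.24), by edgeR.

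*Tuba1a*, the alpha isotype of young neurons, had the smallest log2 fold change of the called members, 0.74 (SE, 0.15; adjusted p = 0.014, edgeR). Its control eyes ran from 232 to 434 CPM (median, 339) and its Best1-Nrf2 eyes from 372 to 791 CPM (median, 582), and the ranges overlapped. The log2 fold change was 0.61 without mice 3, 5, 6 and 8 (adjusted p = 0.207, edgeR) and 0.92 without mice 2, 6, 7 and 9 (adjusted p = 0.172, edgeR). The groups were without overlap for 5 called tubulins in all (*Tuba1b*, *Tuba1c*, *Tuba4a*, *Tubb2a* and *Tubb4a*), and 1.05% of all genes tested had every Best1-Nrf2 eye above every control eye.

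The acidic end of the chain is shown, as the last 20 codons and the stop codon, for the 4 called beta tubulins and *Tuba4a*. Each line gives these 63 bases, 5′ to 3′ on the coding strand, with in-frame glutamate codons (GAA or GAG) in capitals, from GENCODE transcripts on GRCm38. The uncalled *Tubb3* is shown beside them as the neuronal isotype, whose end was the least like that of *Tubb4a* among the beta tubulins.
Tubb4a, chr17:57080690-57080752, minus strand: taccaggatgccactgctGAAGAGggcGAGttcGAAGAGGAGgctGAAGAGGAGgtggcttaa
Tubb4b, chr2:25222308-25222370, minus strand: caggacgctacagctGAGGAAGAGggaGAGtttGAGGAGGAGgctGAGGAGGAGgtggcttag
Tubb5, chr17:35834982-35835044, minus strand: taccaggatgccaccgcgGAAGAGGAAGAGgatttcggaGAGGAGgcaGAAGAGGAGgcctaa
Tubb2a, chr13:34074468-34074530, minus strand: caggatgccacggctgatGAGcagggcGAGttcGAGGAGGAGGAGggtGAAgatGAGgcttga
Tubb3, chr8:123421620-123421682, plus strand: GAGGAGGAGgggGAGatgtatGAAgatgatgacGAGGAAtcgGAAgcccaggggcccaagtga
Tuba4a, chr1:75215622-75215684, minus strand: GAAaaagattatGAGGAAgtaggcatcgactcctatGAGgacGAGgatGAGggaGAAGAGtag

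In these lines the beta genes held 8 to 10 glutamate codons among the last 20, and *Tuba4a* held 8. The end of *Tubb4a* was 80.3% identical to that of *Tubb5*, 76.2% to that of *Tubb4b*, 74.2% to that of *Tubb2a* and 41.3% to that of *Tubb3*. Over whole coding sequences, *Tuba1a* and *Tuba1b* shared 98.3% of their bases, *Tuba1b* and *Tuba1c* 97.9%, *Tubb2a* and *Tubb2b* 96.5%, and *Tubb4a* shared 84.5% with *Tubb2b*, 84% with *Tubb2a*, 83.9% with *Tubb5* and 83.2% with *Tubb4b*. Near-identical genes can trade reads, and the share of a gene's 31-base words that also occur in other annotated genes was 78.6% for *Tuba1a*, 78.7% for *Tuba1b*, 55.3% for *Tuba1c* and 56.4% for *Tubb2a*. The split of counts among these genes is therefore uncertain. For *Tubb4b* the share was 53%, and its main partners were the pseudogenes *Tubb4b-ps1* (41% of its words) and *Tubb4b-ps2* (24.5%). These had mean levels of 0.317 and 0.507 CPM in control eyes and 1.04 and 1.43 CPM in treated eyes, far below those of *Tubb4b*. The share was 1.87% for *Tubb4a* and 3.5% for *Tubb5*, so few of their words occur elsewhere. With *Tuba1a*, *Tuba1b* and *Tuba1c* summed, the log2 fold change was 0.98 (adjusted p = 0.00659, edgeR), and with *Tubb2a* and *Tubb2b* summed it was 0.84 (adjusted p = 0.0040, edgeR), below the 0.94 of *Tubb2a* alone. For *Tuba4a* the share was 38.4%, mostly words of the overlapping *Stk16* on the opposite strand, which was at a mean of 49.6 CPM in control eyes and of 46.2 CPM in treated eyes.

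The other 8 tubulins tested did not pass the test. *Tubb6*, a beta isotype found at low levels in many tissues, was chosen for mention after its values were seen, as the beta tubulin with a negative fold change and the narrowest interval. It ranged from 31.4 to 64.9 CPM over control eyes and from 18.1 to 61.0 CPM in Best1-Nrf2 eyes, which overlapped, and it was lower in 7 of 9 mice (log2 fold change, -0.44; 95% interval, -0.87 to -0.01; adjusted p = 0.375, edgeR). Its log2 fold change was -0.38 without mice 3, 5, 6 and 8 and -0.08 without mice 2, 6, 7 and 9. *Tubb2b* (-0.08), *Tuba8* (0.23), *Tubg1* (0.19), *Tubg2* (0.61), *Tubd1* (-0.15) and *Tube1* (0.10) had log2 fold changes with intervals that held 0. The sign turned for *Tuba8* (-0.76), *Tube1* (-0.22) and *Tubg2* (-0.08) without mice 3, 5, 6 and 8, and for *Tubb2b* (0.41) and *Tubd1* (0.09) without mice 2, 6, 7 and 9. With single mice left out it turned for *Tuba8* (-0.11 to 0.52), *Tube1* (-0.09 to 0.22) and *Tubb2b* (-0.27 to 0.20). It was kept in those fits for *Tubb6*, *Tubg1*, *Tubg2* and *Tubd1*. The photoreceptor covariate moved *Tubb6* to -0.89, *Tubb2b* to -1.75, *Tuba8* to 1.45 and *Tubg2* to 2.17, with none called. The remaining tubulins, *Tuba3a*, *Tuba3b* and *Tubb1*, reached at most 0.556 CPM in any eye and were not tested, and nor was the chaperonin-like gene *Cct8l1*, which reached at most 0.298 CPM.

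*Tubb3*, the class III isotype used as a neuronal marker, differed far more between single eyes than between groups. The lowest, median and highest control eyes were at 0.665, 1.42 and 8.92 CPM, and the Best1-Nrf2 eyes at 0.348, 1.13 and 30.3 CPM (log2 fold change, -0.17; SE, 0.81). The 4 libraries with the highest inner retina scores, 2 in each group, were also the 4 highest for *Tubb3*, at 7.55 to 30.3 CPM, while the other 14 reached at most 2.10 CPM. *Tubg2* followed in part, since 3 of those 4 libraries were among its highest 4. Without mice 2, 6, 7 and 9 the log2 fold change was -0.31 for *Tubb3* and 0.77 for *Tubg2*, and neither was called. The sign of *Tubb3* was not stable: its log2 fold change was 0.93 without the pairing of eyes, 0.30 with the inner retina covariate, 3.78 with the photoreceptor covariate (adjusted p = 0.199, edgeR), and between -0.64 and 0.25 with single mice left out. The 8 called tubulins were called in the fit with the inner retina score as a covariate as well.

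Folding factors were described by the steps at which they act. The CCT ring had 9 tested subunit genes, including the testis-type subunit *Cct6b* at under 4 CPM in every eye. Their log2 fold changes lay between -0.11 and 0.28, with a median of 0.07. The highest was that of *Cct2*, the beta subunit of the ring, named here after its values were seen. It ran from 55.9 to 74.4 CPM over control eyes and from 63.1 to 101 CPM in Best1-Nrf2 eyes and was higher in 9 of 9 mice (log2 fold change, 0.28; 95% interval, 0.02 to 0.54; adjusted p = 0.337, edgeR). For *Tcp1* the value was 0.07, and for *Cct3* 0.26, *Cct4* 0.03, *Cct5* 0.07, *Cct6a* 0.01, *Cct7* 0.11 and *Cct8* 0.01. These values without mice 3, 5, 6 and 8 were -0.08 for *Tcp1*, 0.17 for *Cct2*, 0.08 for *Cct3*, -0.15 for *Cct4*, -0.10 for *Cct5*, -0.02 for *Cct6a*, -0.04 for *Cct7* and -0.16 for *Cct8*, and without mice 2, 6, 7 and 9 they ran from 0.06 (*Cct6a*) to 0.46 (*Cct2*), with none called. With the photoreceptor covariate the same 8 lay between 0.11 (*Cct4*) and 0.58 (*Cct3*), again with none called. The low *Cct6b* was at -0.24, 1.16 and 1.5 in these 3 fits (adjusted p of 0.727 or more, edgeR). Leaving *Cct6b* aside, the upper ends of the 95% intervals ran no higher than 0.57, the bound for *Cct3*.

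**Figure D2:**
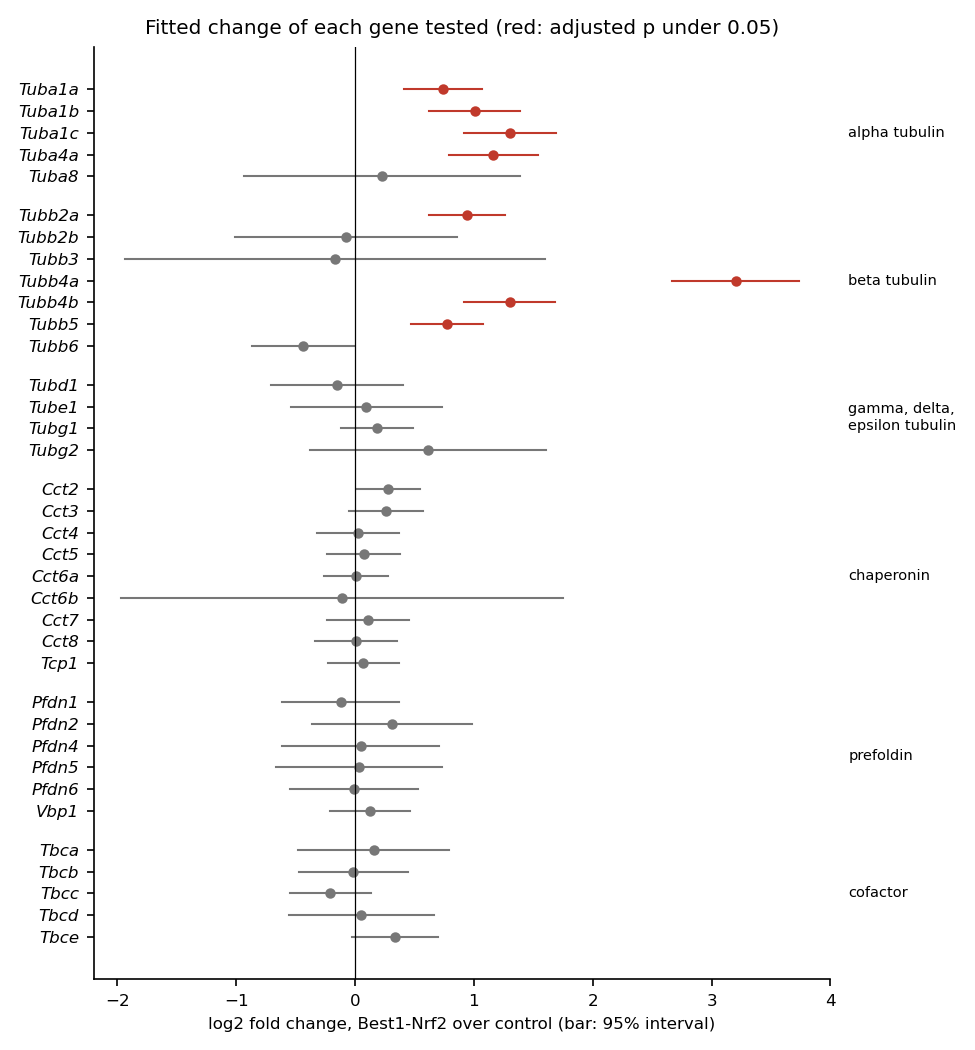
Fitted log2 fold change (points) with its 95% interval (bars) of the 36 genes tested, ordered by the class of protein, with red for an adjusted p under 0.05. Red points occur among the alpha and beta tubulins only, and the widest intervals are those of the low genes Tubb3 and Cct6b.

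Prefoldin, which hands tubulin to CCT, had 6 subunit genes, with log2 fold changes between -0.12 (*Pfdn1*) and 0.31 (*Pfdn2*) and a median of 0.04. Their intervals were wide, reaching 0.98 for *Pfdn2*. With single mice left out, *Pfdn2* ran from 0.07 to 0.47 and *Vbp1* from 0.05 to 0.21. The sign turned in those fits for *Pfdn1* (-0.28 to 0.02), *Pfdn4* (-0.19 to 0.22), *Pfdn5* (-0.20 to 0.23) and *Pfdn6* (-0.20 to 0.13). Without mice 2, 6, 7 and 9 the log2 fold changes lay between -0.14 (*Pfdn1*) and 0.26 (*Vbp1*), with none called. The libraries rich in short genes held the highest levels: for *Pfdn2*, *Pfdn4*, *Pfdn5* and *Pfdn6* the 5 highest of the 18 libraries were those 5, and for *Pfdn1* 4 of them. *Pfdn5* was between 244 and 333 CPM in those 5 and at most 141 CPM elsewhere. *Vbp1*, the subunit PFDN3 that binds the von Hippel-Lindau protein, had 2 of those 5 among its 5 highest and a log2 fold change of 0.13. Without mice 3, 5, 6 and 8 the log2 fold changes were -0.22 for *Pfdn1*, 0.17 for *Pfdn2*, -0.27 for *Pfdn4*, -0.14 for *Pfdn5* and for *Pfdn6*, and -0.06 for *Vbp1*, with none called. With the photoreceptor covariate they were 0.62 for *Pfdn1*, 1.90 for *Pfdn2*, 1.42 for *Pfdn4*, 1.5 for *Pfdn5*, 1.13 for *Pfdn6* and 0.75 for *Vbp1*, and the lowest adjusted p was 0.107 (*Pfdn2*, edgeR).

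The 5 cofactors that build the dimer had a median log2 fold change of 0.05. *Tbca*, which holds beta tubulin, was at 0.16, and its 5 highest libraries were the same 5 as those of the prefoldins. *Tbcb*, which holds alpha tubulin, was at -0.01. These values were 0.04 for *Tbca* and -0.18 for *Tbcb* without mice 3, 5, 6 and 8. With single mice left out they ran from -0.07 to 0.32 for *Tbca* and from -0.17 to 0.09 for *Tbcb*, so neither sign was stable. *Tbcc* and *Tbce*, which act in the last complex and trigger GTP hydrolysis or split the dimer, were at -0.21 and 0.34, the lowest and highest values among the folding factors. *Tbcd*, the scaffold for beta tubulin, was at 0.05 with an interval from -0.56 to 0.66, and with single mice left out it ran from -0.12 to 0.19. With the photoreceptor covariate the values were 1.39 for *Tbca*, 0.79 for *Tbcb*, 0.30 for *Tbcc*, -1.23 for *Tbcd* and 0.88 for *Tbce*, with none called.

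The balance of isotypes was described by summing levels per kb of exon. In control eyes tubulins together took 0.244% ± 0.0398 of all counts in the library, and in Best1-Nrf2 eyes 0.508% ± 0.131 (SD, n = 9 each). Alpha tubulins summed to 773 ± 70 CPM per kb in control eyes and 1551 ± 326 in Best1-Nrf2 eyes, a mean log2 difference of 0.98 over mice. Beta tubulins summed to 353 ± 73 and 915 ± 180 CPM per kb, a mean log2 difference of 1.37, and chaperonin subunits to 242 ± 28 and 259 ± 37 CPM per kb, a mean log2 difference of 0.09. The ratio of the tubulin sum to the chaperonin sum ran from 4.09 to 5.22 in control eyes, but 7.33 to 11.5 in treated eyes, so the 2 ranges did not overlap.

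The make-up of the beta pool differed as well. *Tubb4a* gave 6.29% ± 1.81 of it in control eyes and 22.7% ± 7.18 in Best1-Nrf2 eyes (SD, n = 9 each). *Tubb4b* gave 57.1% and 54.3%, *Tubb2a* 20.5% and 15.1%, *Tubb5* 7.39% and 4.93%, and *Tubb6* 6.16% and 1.72%. A smaller share here does not mean a lower level, since *Tubb2a* and *Tubb5* rose in CPM. In the alpha pool *Tuba1b* gave 61.4% and 62.4%.

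**Figure D3:**
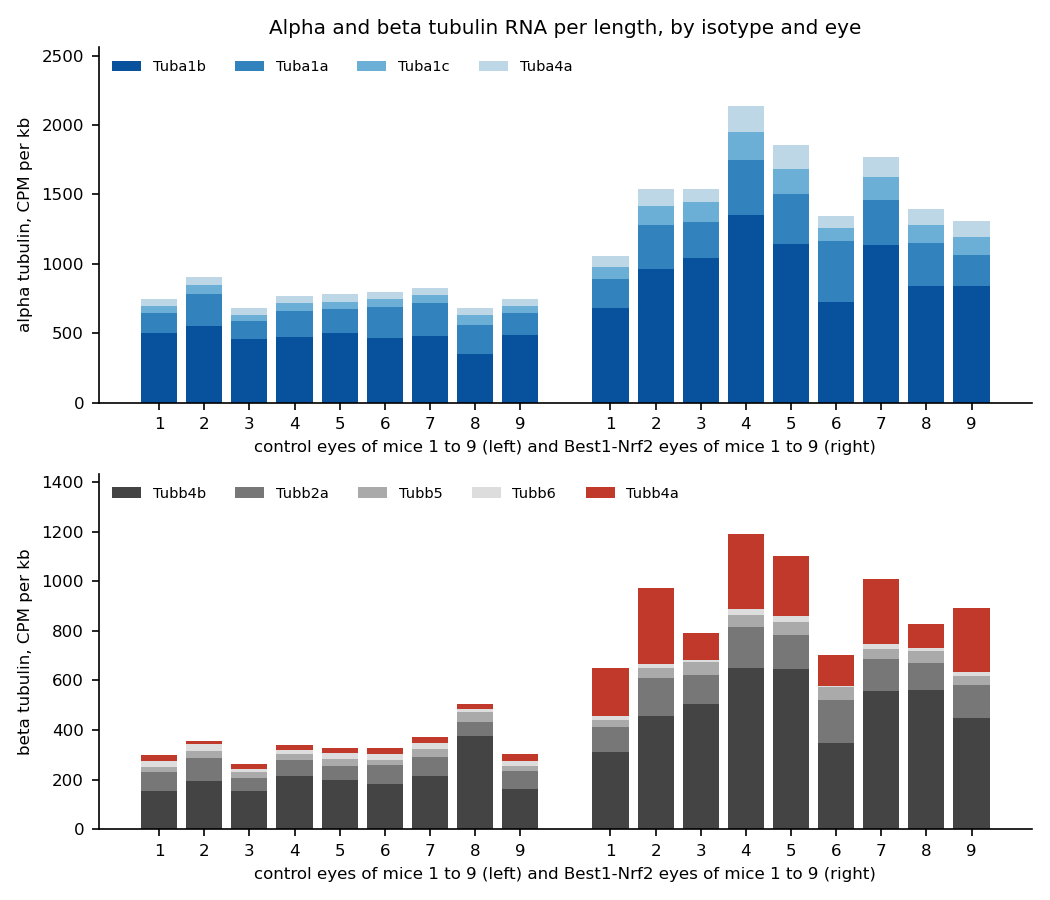
Level in CPM per kb of exon (bar height, from 0) of the main alpha (top) and beta (bottom) isotypes in the control eyes (left bars) and Best1-Nrf2 eyes (right bars) of mice 1 to 9. The red segments for Tubb4a take a mean of 6.29% of the beta pool in control eyes and 22.7% in Best1-Nrf2 eyes.

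Other genes of the pathway were read from 5 lists. Of the 93 genes tested in them, 3 were called higher (3.23%, beside 3.12% of all genes) and 0 lower. Of 20 tested genes of other folding and assembly factors, some of which (such as *Ruvbl1*, *Rpap3* and *Nudc*) are known mainly for clients other than tubulin, 1 was called higher and 0 lower. It was *Tbcel*, a relative of cofactor E that is known to destabilise tubulin, at 18.7 ± 11.1 CPM in control eyes and 205 ± 124 CPM in treated eyes (log2 fold change, 3.35; SE, 0.33; adjusted p = 1.0e-04, edgeR; higher in 9 of 9 mice). Its log2 fold change was close to that of *Tubb4a*. Of 35 microtubule-associated proteins, 1 was called, the neuronal *Map1a*, at 11.5 ± 3.2 and 58.1 ± 23 CPM (log2 fold change, 2.27; SE, 0.25; adjusted p = 2.5e-04, edgeR; 9 of 9 mice). Of 21 enzymes that modify tubulin, 1 was called, the polyglutamylase *Ttll7*, which adds glutamates to tubulin tails, at 11.9 ± 11 and 33.9 ± 36.4 CPM (log2 fold change, 1.45; SE, 0.35; adjusted p = 0.038, edgeR; 8 of 9 mice). The call of *Ttll7* was lost without the pairing of eyes, under upper-quartile scaling, without mice 2, 6, 7 and 9, and on leaving out mouse 1, 2, 3, 4, 7, 8 or 9 alone, and all 3 calls were lost with the photoreceptor covariate. No gene was called among 12 partners of gamma tubulin or 5 actins, which are also clients of CCT. The medians of the 5 lists ranged from -0.26 (actins) to 0.10 (other folding factors).

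Levels in control eyes were not used to choose the members and could be ordered by test. The test asks only whether an order is the same over eyes. A split of reads among *Tuba1a*, *Tuba1b*, *Tuba1c* and *Tubb2a* that is wrong alike in every eye would pass it. By CPM per kb of exon, *Tuba1b* (474 ± 53) was first, ahead of *Tubb4b* (205 ± 68) in 8 of 9 eyes (exact sign-flip permutation test, 2-sided, adjusted p = 0.017 over 32 neighbour pairs). *Tubb4b* and *Tuba1a* (188 ± 41) did not differ beyond their spread (adjusted p = 0.593, exact permutation). *Tubb2a* followed at 70.3 and stood above *Tuba1c* at 55.9 (adjusted p = 0.029, exact permutation), while *Tuba1c* and *Tuba4a* (53.1) did not differ beyond their spread. Next came *Tubb5*, *Tubb4a*, *Tubb6* and *Tubg1* at 26, 21.3, 21.1 and 18.5 CPM per kb, and no neighbours among them passed the test. Per kb of the longest transcript *Tuba4a* stood before *Tuba1c*, and *Tubb6* and *Tubg1* before *Tubb4a*. By that length *Tubb4b* stood above *Tuba1a* in 9 of 9 eyes (adjusted p = 0.011, exact permutation) and *Tubb6* above *Tubg1* in 8 of 9 (adjusted p = 0.038, exact permutation). *Tubb2a* and *Tuba1c* then differed by a mean of 0.12 on the log2 scale (SD, 0.28; exact permutation p = 0.227), so their order did not hold. *Tubb2b* (7.97), *Tubd1* (2.58), *Tubb3* (1.45), *Tubg2* (1.32), *Tuba8* (1.00) and *Tube1* (0.25) were lowest. In Best1-Nrf2 eyes *Tubb4a* was at 211 ± 83 CPM per kb.

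Subunits of CCT, which stand in equal number in the ring, had mRNA levels between 18.6 (*Cct3*) and 43.7 CPM per kb (*Cct5*), except for *Cct6b* at 0.39. These levels depend on the length used: *Cct3* and *Cct5* had 119 and 121 CPM before division, and per kb of the longest transcript the same subunits ran from 34.3 (*Tcp1*) to 65.2 (*Cct5*). Prefoldin subunits ranged from 9.02 (*Pfdn4*) to 126 CPM per kb (*Pfdn1*), and cofactors from 3.65 (*Tbce*) to 98.6 (*Tbca*). Of 32 neighbour pairs, 8 of 15 among the tubulins and 10 of 17 among the folding factors passed the test, and per kb of the longest transcript 7 and 7 did.

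**Figure D4:**
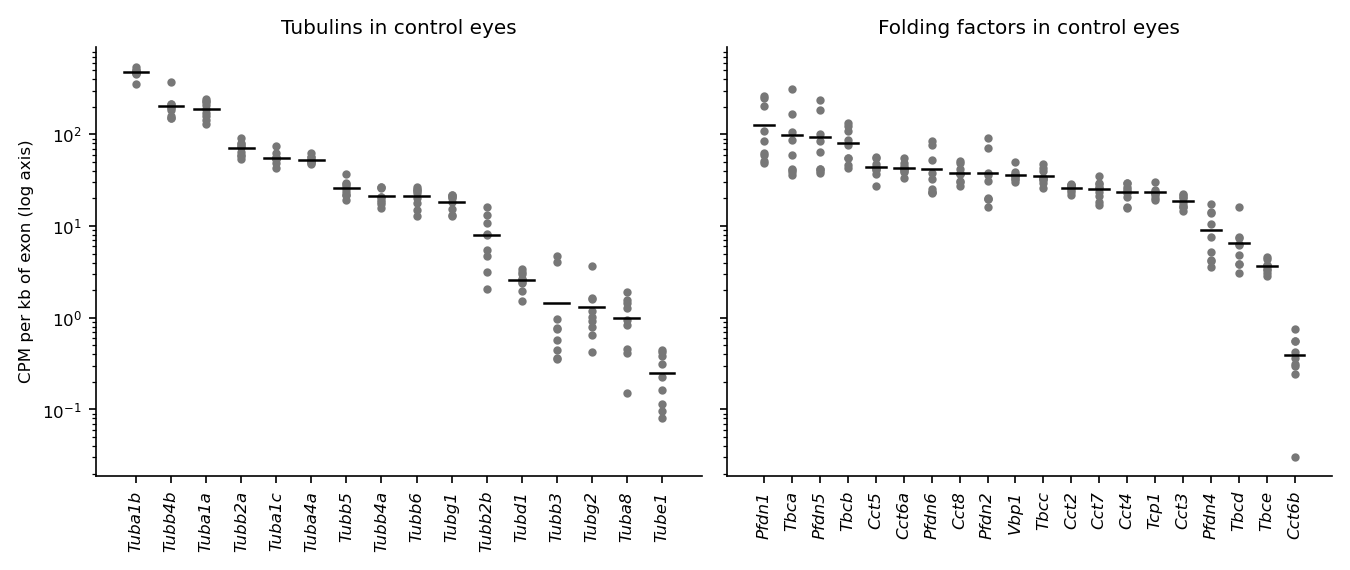
Level in CPM per kb of exon (log axis) of each tubulin (left) and folding factor (right) tested, in the 9 control eyes (points), with a line for the mean. Tuba1b leads at 474 CPM per kb, and all CCT subunits other than Cct6b have means between 18.6 and 43.7.

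Single genes also differed in how much they varied among control eyes. The SD of log2 CPM was 0.13 for *Tuba4a* and 0.14 for *Cct2*, against a median of 0.53 for the genes in the same of 4 classes by mean level, of which 0.401% and 0.527% had an SD as small. By contrast it was 1.09 for *Tbca*, 0.99 for *Pfdn5* and 1.36 for *Tubb3*, the last against a median of 0.73 in its own class. The SD of *Tubb4a* in control eyes was 0.29.

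**Figure D5:**
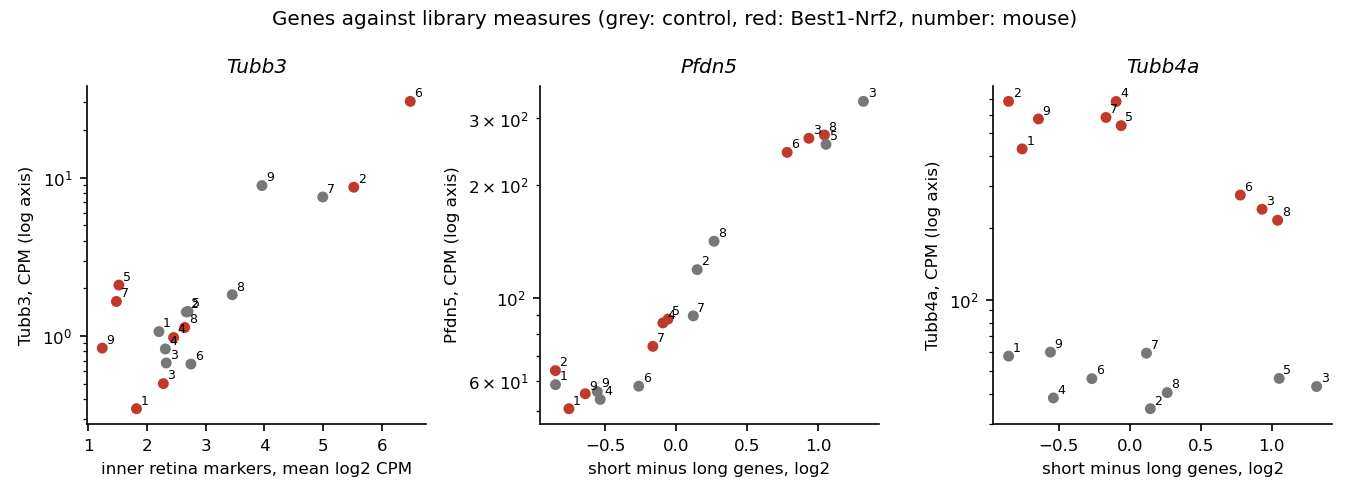
CPM (log axis) of Tubb3 against the mean log2 CPM of inner retina neuron markers, and of Pfdn5 and Tubb4a against the level of short over long genes, for control (grey) and Best1-Nrf2 (red) libraries numbered by mouse. Tubb3 is highest, at 7.55 to 30.3 CPM, in the 4 libraries with the highest marker score, and Pfdn5 in the 5 libraries with the most short-gene signal, while Tubb4a separates the groups along the whole axis.

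Markers of some other cells moved with the groups. Of 11 cone markers tested, 10 were called lower in Best1-Nrf2 eyes and 0 higher, and their mean log2 CPM ranged from 4.43 to 7.14 over control eyes and from 1.31 to 4.53 over treated eyes. Of 10 rod markers tested, 4 were called lower and 1 (*Rom1*) higher, with a mean log2 CPM of 2.40 to 4.14 over control eyes and of -0.50 to 2.72 over treated ones. The rod factors *Nrl* and *Nr2e3*, too low to test, had group means of at most 0.355 CPM. *Pde6b*, the gene mutated in *rd1*, reached at most 0.636 CPM of the unscaled total in any of the 18 libraries. Of 15 macrophage and microglia markers, 9 were called higher and 0 lower, with a mean log2 CPM of 2.81 to 3.87 against 3.10 to 4.99. Of 17 inner retina neuron markers, 1 was called, the neurofilament gene *Nefm*, which was higher. All 10 fibroblast and sclera markers had positive log2 fold changes (median, 0.51), with 1 called higher (*Col3a1*, 1.15), and their mean log2 CPM ranged from 3.63 to 5.13 over control eyes and from 4.36 to 5.56 over treated ones. Of 10 markers of proliferating cells 0 had a positive log2 fold change (median, -0.70) and 1 was called lower (*Cdk1*, -0.84), with a mean log2 CPM of 1.45 to 3.82 against -0.39 to 3.20. No marker was called in either direction by edgeR among 10 of Muller glia (median, -0.20), 10 of endothelium (median, 0.08) and 7 of Schwann cells and melanocytes (median, -0.52), and 1 of them (*Vim*, of the glia) had an unadjusted p under 0.05. The part of macrophages, fibroblasts and proliferating cells in the tubulin levels was not tested.

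For photoreceptors, a fit with the joint rod and cone score as a covariate was made. With it 0 of the 8 tubulins were called, and 38 genes were called higher among all genes, in place of 592. Apart from the treated eye of mouse 6, every treated eye had a score of at most 2.38 and every control eye one of at least 3.53. The log2 fold changes in that fit were 2.75 for *Tubb4a* (adjusted p = 0.0619, edgeR) and 0.88 to 1.17 for the other 7. The score was higher in the control eye of 8 mice. In mouse 6 it was 3.67 in the treated and 3.53 in the control eye, and *Tubb4a* was at 275 and 46.5 CPM there, *Tuba1b* at 1360 and 877 CPM, and *Tubb4b* at 729 and 384 CPM. The treated eye of mouse 6 was also the highest for inner retina markers. Group and photoreceptor content cannot be told apart here.

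Promoters of the called genes were searched because Nrf2 acts through the antioxidant response element, and heat shock factors, which control chaperone genes, act through heat shock elements. RefSeq promoter windows (GRCm38.p6; 250 bases before to 50 after the start of transcription) were found for 35 of the 40 members, including all 8 called tubulins. The core letters TGACNNNGC, on either strand, were in at least 1 window of 3 of the 8 called genes and of 8 of the 35 members, beside 14% of all 27025 genes with a window, some of which have several (12.4% of all 32851 windows). Members that held it but were not called were *Cct2*, *Cct6a*, *Tcp1*, *Tubb1* and *Tube1*. Whether Nrf2 acts at any of these matches was not tested. The core GAANNTTC was in 0 of 8 and 2 of 35 genes, beside 9.04% of all genes (7.86% of all windows). The upstream 250 bases of the 3 called genes with a match are shown in the 5′ to 3′ direction of the gene, with the match in capitals. It began 61 bases before the start in *Tubb4a*, 91 in *Tuba1a* and 28 in *Tuba1c*.
Tubb4a, chr17:57087601-57087850, minus strand: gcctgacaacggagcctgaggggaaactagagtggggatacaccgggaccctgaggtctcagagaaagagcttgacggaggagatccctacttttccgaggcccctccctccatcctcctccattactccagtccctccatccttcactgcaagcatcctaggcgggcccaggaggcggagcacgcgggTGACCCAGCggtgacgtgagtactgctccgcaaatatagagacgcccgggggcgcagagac
Tuba1a, chr15:98953502-98953751, minus strand: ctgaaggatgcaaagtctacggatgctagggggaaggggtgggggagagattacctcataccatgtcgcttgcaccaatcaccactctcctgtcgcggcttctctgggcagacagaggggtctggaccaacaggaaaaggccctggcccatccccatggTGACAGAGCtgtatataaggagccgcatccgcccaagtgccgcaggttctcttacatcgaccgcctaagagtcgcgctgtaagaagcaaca
Tuba1c, chr15:99029641-99029890, plus strand: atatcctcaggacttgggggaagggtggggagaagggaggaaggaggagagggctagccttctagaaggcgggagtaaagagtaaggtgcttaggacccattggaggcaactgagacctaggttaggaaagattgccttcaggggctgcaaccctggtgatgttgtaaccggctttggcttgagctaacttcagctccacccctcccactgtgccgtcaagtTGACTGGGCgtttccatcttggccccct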

How the data were processed

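Total RNA from rd1 eyecups at P40 was turned into amplified poly(A) libraries by the authors, 9 per group, from both eyes of 9 mice; both eyes carry the same number in the labels, which was taken as the animal, and the study's methods compare eyes of a mouse. The study's methods describe fewer rd1 pairs at this age than the table holds, and P40 pairs of CD1, which keeps its rods; the 2 kinds together make up the number of pairs in the table. The labels name every library as rd1, so all 9 pairs were used, and the strain of each mouse was not tested. Per the authors' methods, reads were aligned to mm10 with Ensembl transcripts by STAR and counted by featureCounts, and in parallel quantified by Salmon (0.8.1 in the submitters' processing notes). The authors deposited estimated counts as whole numbers for each Ensembl gene, without scaling between libraries; which counter made the table is not given in the sources used here. Libraries were sequenced in more than 1 run, and the labels do not tie libraries to runs. No molecular identifiers are described, so precision from counts covers counting error only.

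Members were matched by symbol through GENCODE mouse release M21 and, for coding status, RefSeq. Tests were done in R 4.3.3 with edgeR 4.0.16 (filterByExpr, TMM, quasi-likelihood F test, mouse as a block, Benjamini-Hochberg over 18958 genes). Log2 CPM used a prior count of 2. Levels in control eyes were compared by 2-sided exact sign-flip tests over 9 eyes (smallest p, 0.0039). Alternatives included DESeq2 1.42.0 and limma 3.58.1 (voom); those that leave out mice 3, 5, 6 and 8 or 2, 6, 7 and 9, and the short-gene covariate, were chosen after seeing the data. On simulated data for this comparison (18958 genes, 200 changed by 1.5 on the log2 scale), 75% of changes were recovered. That change is larger than those of all called tubulins but Tubb4a, and than those of all folding factors (at most 0.34). The share recovered does not apply to changes as small as these.

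The members, the gene lists and the tests were chosen with earlier results of these data known. The lowest, median and highest eye of each group are given for called members and Tubb3, and most other members are given by their log2 fold changes, with the ranges of Tubb6 and Cct2 added after their values were seen. From each pathway list, called genes are named. After group means were removed, correlations between the eyes of a mouse had a median of -0.00095 (range, -0.37 to 0.64). The pairing thus rests on the labels and the study's methods, and these correlations do not show it. No pair of same-group libraries agreed within sampling noise (72 pairs; lowest ratio of chi-square to its degrees of freedom, 49.5). Some coding ends are not reported here.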

Additional observations from a re-analysis of the deposited data

Results flagged for a closer look

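Control replicate 8 stood apart from the other control eyes for 3 members. Its log2 CPM was 9.61 for Tubb4b, where the next highest control eye was at 8.80, and 9.37 for Tuba1b, where the next lowest was at 9.74. For Cct6b, the low testis-type subunit, it was -3.18 against -0.97 in the next lowest eye. A gap of this size to the nearest eye arises by chance in about 1 of 20 groups of this size. Of the 72 groups examined, 3 showed one, beside 3.6 that chance would give. All 3 fell in control replicate 8, so this comparison does not tell whether that library as a whole stands apart. Its total was 18956748 counts, against 28225037 in the next lowest control eye. Its mean log2 CPM of RPE markers was 7.79, against 9.01 in the next lowest. Whether these bear on the gaps was not tested. Without mouse 8 the 8 tubulins were still called.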

How the results depend on the processing

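The 8 tubulins called higher stayed at 8 without the replicate block (pairing of the eyes), under RLE and upper-quartile scaling, with DESeq2 and voom, under both count filters, at a threshold of 0.1, with the inner retina or the short-gene covariate, and with each mouse left out in turn; the folding factors stayed at 0 in every alternative. Every called tubulin had a positive log2 fold change in 21 of 21 alternatives. The median of the tubulins, 0.68, was 0.82 without the replicate block and 0.41 in voom, and with single mice left out it ran from 0.53 to 0.79. With paralogs summed, 6 genes were called by construction. With the photoreceptor covariate 0 tubulins were called, and the medians were 0.99 for tubulins and 0.60 for folding factors; 0 pathway genes were called higher in that fit. Without mice 3, 5, 6 and 8, 4 tubulins were called (Tubb4a, Tubb4b, Tuba1c and Tuba4a) and their family's median was 0.32; without mice 2, 6, 7 and 9, 2 were called (Tubb4a and Tuba1c). Both leave 5 mice. Without mice 3, 5, 6 and 8 the median of the folding factors was -0.09. In DESeq2 and in voom 1 pathway gene was called lower (Ttll11). Of pathway genes 2 were called higher without the block, under upper-quartile scaling and without mice 2, 6, 7 and 9, 4 in voom and with the short-gene covariate (Ttll12 added), and 2 to 3 with single mice left out. In the order of control levels, 6 to 7 tubulin neighbour pairs and 7 to 11 folding factor pairs passed with 1 eye left out.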
